A study of Ovis aries with 6 samples.

Results

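The muscle genes measured in skin were MB, MYL11, TNNC2, FHL1, CRYAB and CNN1, taken as every non-control array probe whose systematic name is a sheep RefSeq mRNA of one of these genes. The rule found 6 genes of the 476 to which a symbol could be given, measured by 8 probes of the 15008 on the array. MB and TNNC2 have 2 probes each and the other 4 genes have 1 each. Skin was taken through its full thickness from 1 ram and 2 ewes of the Aohan fine wool breed, aged 12 months and all by the same father. Wool-bearing skin of the body side (3 arrays, 1 per animal) was set against non-wool-bearing skin of the groin (3 arrays, 1 per animal). The series asks, by its title, which genes go with wool growth. Replicate 1 is the ram at both sites and replicates 2 and 3 are ewes.

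Striated muscle shortens when calcium binds troponin on the thin filament and myosin heads, carried on light chains, pull on actin. Myoglobin stores oxygen in such fibres, LIM-domain proteins sit in their filament scaffold, and small heat shock proteins hold unfolding filament proteins in solution. Smooth muscle lacks troponin and carries calponin on its actin instead. Full-thickness skin can hold smooth muscle in vessel walls and in the small muscles that raise hairs, and skeletal muscle where a cutaneous muscle sheet was cut with the sample. The RNA was taken from whole skin, so fewer cells of a type and less RNA per cell cannot be told apart.

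All 8 probes were tested. With each array scaled to its own 75th percentile, 3 of them were higher on the body side, 3 were lower and 2 did not pass (limma, Benjamini-Hochberg adjusted p under 0.05 over 13278 tested probes). Over all tested probes 37.0% were called higher and 32.8% lower, 69.9% in all, so the count of 6 muscle probes called is close to the background and is not in itself a result about them. CRYAB was 9.53-fold higher on the body side, one MB probe 3.63-fold and MYL11 2.02-fold. Of these, only the CRYAB call held under every other way of processing tried. The MB call ended in the unscaled signals. That on MYL11 ended there and with quantile normalization, cyclic loess and the authors' deposited log2 values. FHL1 was 14.7-fold lower on the body side, and the TNNC2 probes were called lower on dim spots. The direction of TNNC2 depended on the processing: both probes turned to above 0 with normexp background correction (0.45 and 0.33). Neither passed with that correction or with median centring (-0.39 and -0.25). CNN1 and the other MB probe did not pass. The dimmer MB probe and both TNNC2 probes were well above background on 3 groin arrays but on 2 body side arrays, so they were tested only because of the groin arrays. A filter on all 6 arrays removed these 3 probes and left 5, of which 3 were called higher and 1 lower. Under that filter 4801 of all 10579 tested probes were called higher and 2963 lower. The count over 5 probes is therefore not in itself a result about them. The median difference of the 8 probes was 0.33 on the log2 scale, against 0.10 for all tested probes.

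The arrays differed by site in ways that touch every value given here. Between 10730 and 13384 probes were well above background on body side arrays, against 13523 to 14053 on groin arrays. The 75th percentile of the processed signal lay between 1103 and 2048 on the body side arrays and between 3677 and 4401 on the groin arrays. The 3 body side arrays were read in 1 scan and the 3 groin arrays in another, so scan and site cannot be told apart. Levels below are log2 signals scaled to each array's own 75th percentile, where 0 is the brightness of a probe at that percentile, and they serve to compare arrays for 1 probe, not probes with each other. This scaling adds the same 1.57 to the log2 site difference of every probe. A scaled difference above 0 but under 1.57 is therefore below 0 in the unscaled signals. Of the marker genes listed for skin cells, 8 of 10 for the wool fibre and its sheath had tested probes, which were all higher on the body side, and no gene of the basal and suprabasal keratinocyte list had a named probe. Of the 442 named genes tested, 45.5% were called higher on the body side and 25.6% lower, the background for every list count given here.

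**Figure D1:**
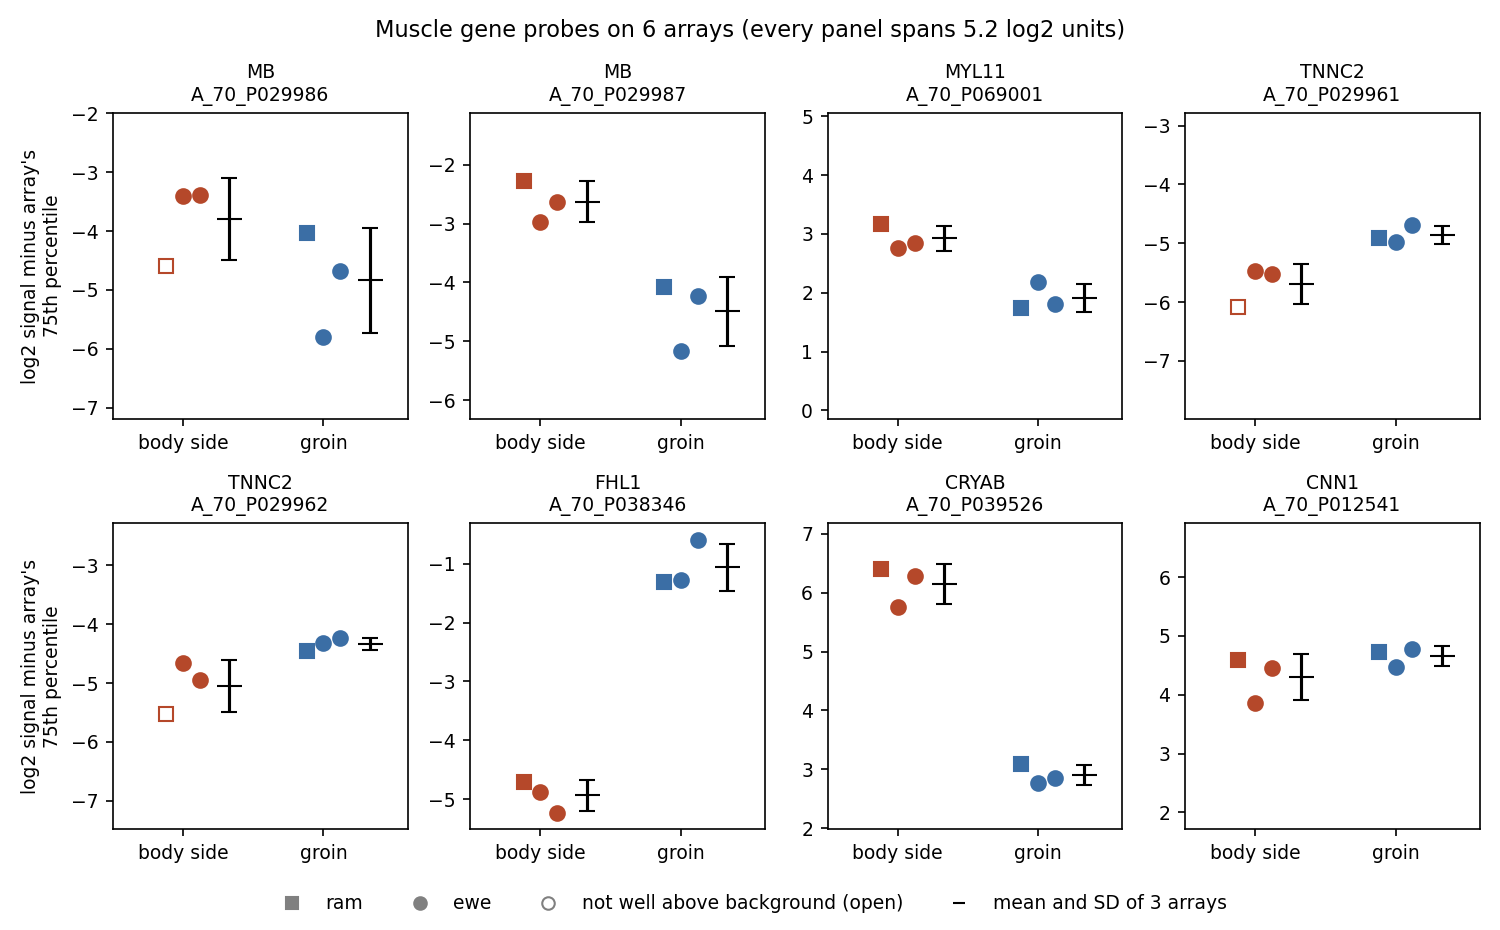
Level of each muscle gene probe (vertical axis, log2 signal scaled to the array's 75th percentile) on the 3 body side arrays and the 3 groin arrays, with squares for the ram, circles for ewes, open symbols for spots not well above background, and bars for the mean and SD of 3 arrays. The sites did not overlap for 6 of the 8 probes, and the gap is widest for FHL1 and CRYAB.

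MB encodes myoglobin, the oxygen-storing haem protein of muscle fibres. Its brighter probe, A_70_P029987, had levels of -2.28, -2.98 and -2.64 on body side arrays 1, 2 and 3, against -4.08, -5.16 and -4.23 on groin arrays 1, 2 and 3. Every body side array lay above every groin array. The log2 difference was 1.86 ± 0.31 (SE, limma adjusted p = 9.49e-04), with a 95% interval from 1.14 to 2.57. Before scaling, the processed signals were 227, 260 and 181 on the body side arrays and 218, 117 and 234 on the groin arrays, so the raw brightness overlapped between sites. The unscaled difference was 0.28 and did not pass (adjusted p = 0.468); under the other 19 alternatives the call held.

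The other MB probe, A_70_P029986, gave a less even picture. Its levels were -4.60, -3.40 and -3.39 on the body side arrays, against -4.03, -5.80 and -4.69 on the groin arrays. The body side array of the ram was the lowest of its site and fell below the ram's groin array, while both ewes' body side arrays lay above all groin arrays. The log2 difference was 1.04 ± 0.48 (SE, limma adjusted p = 0.0815), with a 95% interval from -0.06 to 2.14. On the ram's body side array this spot was not well above background, and its processed signal was 45.4 with an error of 24.4% by the scanner software, against 194 and 108 on the ewes' body side arrays. Without body side replicate 1 the difference was 1.45 and passed (adjusted p = 0.00951), as it did without groin replicate 1 (1.45, adjusted p = 0.0303) and without replicate 1 at both sites (1.85, adjusted p = 8.50e-04). It also passed with normexp background correction (1.22), quantile normalization (1.36), cyclic loess (1.32), median centring (1.50) and the authors' deposited log2 values (1.32). In the unscaled signals it was -0.53.

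Both MB probes varied more within a site than most probes did. With 1 array per animal at each site, variation of animals, arrays and spots cannot be told apart. The within-site SD was 0.80 for A_70_P029986 and 0.48 for A_70_P029987, at the 97.8 and 88.4 percentiles of all tested probes, whose median SD was 0.25. On both probes groin array 2, of a ewe, was the lowest of the 6. Within an array, A_70_P029987 minus A_70_P029986 was 2.32, 0.42 and 0.75 on the body side arrays, against -0.05, 0.64 and 0.45 on the groin arrays. The ram's body side array stands apart on this measure, and the means of 1.16 for the body side and 0.35 for the groin were not separated by the test (exact permutation test, two-sided p = 0.3, where 3 against 3 arrays allow no p below 0.1).

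MYL11 encodes the regulatory light chain of fast skeletal muscle myosin and is also known as MYLPF. Its probe had levels of 3.17, 2.76 and 2.85 on the body side arrays, against 1.74, 2.19 and 1.81 on the groin arrays. All body side arrays lay above all groin arrays, with a difference of 1.01 ± 0.20 (SE, log2, limma adjusted p = 0.00203). This gene's probe was bright at both sites, with processed signals of 9924, 13840 and 8161 on the body side arrays and 12287, 19028 and 15456 on the groin arrays. In those unscaled signals the groin mean was the higher, with a difference of -0.56. Probes this bright were mostly higher on the body side: of 10 equal groups of tested probes by brightness, the brightest had 78.3% called higher and a median difference of 1.14, and MYL11 stood at the 42.5 percentile of that group. Quantile normalization gave 0.21 (adjusted p = 0.361), cyclic loess 0.22 (0.323) and the authors' deposited log2 values 0.21 (0.376), none past the threshold. The call on MYL11 held under the other 16 alternatives, with normexp (1.16) and median centring (1.47) among them.

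TNNC2 encodes troponin C of fast skeletal muscle, the subunit that binds calcium. Probe A_70_P029961 had levels of -6.09, -5.48 and -5.53 on the body side arrays, against -4.91, -4.98 and -4.68 on the groin arrays. Probe A_70_P029962 had levels of -5.52, -4.66 and -4.94 on the body side arrays, against -4.45, -4.32 and -4.24 on the groin arrays. On both probes all body side arrays lay below all groin arrays, and the ram's body side array was the lowest. The log2 differences were -0.84 ± 0.21 (SE, limma adjusted p = 0.00702) and -0.71 ± 0.24 (adjusted p = 0.0258). Within an array, A_70_P029962 minus A_70_P029961 lay between 0.57 and 0.82 on the body side arrays and between 0.44 and 0.66 on the groin arrays.

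These TNNC2 spots were near the floor of the arrays, and the filter on all 6 arrays removed both probes. They entered the test through the groin arrays, where they were the higher, so their calls are given as a description and the sizes are not exact. On the body side the median spot brightness was between 2.01 and 2.87 times the local background over both probes, against 3.45 to 4.89 times in the groin. Neither spot was well above background on the ram's body side array, where the scanner software gave errors of 37.2% and 35.4%. With normexp background correction both differences turned to above 0, at 0.45 (adjusted p = 0.0506) and 0.33 (0.0963), and neither passed. With median centring they were -0.39 and -0.25 and neither passed. For A_70_P029962 the call also ended with quantile normalization (-0.43), cyclic loess (-0.46) and the authors' deposited log2 values (-0.42). It ended without body side replicate 1 (-0.46), groin replicate 2 (-0.70), groin replicate 3 (-0.66), or replicate 1 or 3 at both sites (-0.52 and -0.71). For A_70_P029961 it ended without replicate 3 at both sites (-0.84, adjusted p = 0.0541).

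FHL1 encodes a LIM-domain protein that is abundant in skeletal and heart muscle. Its levels were -4.70, -4.88 and -5.23 on the body side arrays, against -1.32, -1.27 and -0.59 on the groin arrays. The highest body side array lay more than 3 log2 units below the lowest groin array. The difference was -3.88 ± 0.24 (SE, log2, limma adjusted p = 1.32e-05), the 120th lowest of 13278. Processed signals were 42.4, 69.7 and 30.2 on the body side arrays, against 1477, 1728 and 2916 on the groin arrays. The body side spots were well above background on all 3 arrays, but at only 2.13 to 2.77 times the local background, against 31.7 to 59.3 times in the groin. The call and its direction held under all 20 alternatives, with values from -5.45 without scaling to -2.57 with normexp. In its own brightness group the median difference was -0.26, and FHL1 stood at the 2.1 percentile.

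CRYAB encodes alpha-B crystallin, a small heat shock protein of the lens and of heart and skeletal muscle. Its probe, A_70_P039526, had levels of 6.40, 5.76 and 6.29 on the body side arrays, against 3.09, 2.76 and 2.85 on the groin arrays. The sites lay far apart beside the spread within each, and the difference was 3.25 ± 0.21 (SE, log2, limma adjusted p = 1.5e-05), the 67th highest of 13278. The probe was also brighter before scaling, at 93175, 111352 and 88433 on the body side arrays, against 31201, 28300 and 31696 on the groin arrays, with an unscaled difference of 1.68. All 6 spots were read from the low-gain scan that Feature Extraction scales up for bright spots, and none was saturated. The call held under all 20 alternatives. The size depended on the scaling. The log2 difference was 2.04 with quantile normalization, 2.02 with cyclic loess, 2.08 with the deposited log2 values and 1.68 without scaling, against 3.25 in the main fit. In the brightest group CRYAB stood at the 96.6 percentile.

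Markers of the wool fibre and its sheath moved with CRYAB. The 8 tested genes of that list were all called higher on the body side, with a median difference of 3.34. Of all named genes 45.5% were called higher, and of the brightest group of probes 78.3%. Their summed signal, in units of the 75th percentile of the array, ran from 589 to 1020 on the body side arrays, against 72.5 to 88.3 on the groin arrays. Each of the 8 was well above background on all 3 body side arrays by its brightest probe. Their part in the CRYAB result was not tested. CRYAA, which encodes the other alpha crystallin and has 2 probes, was also higher on the body side, by 1.08 ± 0.22 (SE, log2, limma adjusted p = 0.00277) and by 1.06 ± 0.24 (0.00434); both were below 0 without scaling, at -0.50 and -0.52, and the call on the dimmer probe ended without replicate 3 at both sites (0.97, adjusted p = 0.0531).

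CNN1 encodes calponin of smooth muscle, an actin-binding protein and a marker of differentiated smooth muscle cells. Its levels were 4.59, 3.85 and 4.46 on the body side arrays, against 4.72, 4.46 and 4.78 on the groin arrays. The sites overlapped, since the ram's body side array lay above groin array 2. The difference was -0.35 ± 0.23 (SE, log2) and did not pass (limma adjusted p = 0.194), with a 95% interval from -0.87 to 0.17. The spots were among the brightest of the array at both sites, with processed signals of 26631, 29602 and 24927 on the body side arrays and 97207, 92110 and 120878 on the groin arrays. Most probes of like brightness differed the other way: 4.82% of the brightest group were called lower, and the difference of CNN1 stood at the 6.1 percentile of that group. It was called lower with several other settings, at -1.57 with quantile normalization (adjusted p = 2.54e-04), -1.57 with cyclic loess (1.84e-04), -1.61 with the deposited log2 values (1.79e-04) and -1.93 without scaling (1.59e-04). With median centring it was 0.10 and did not pass. The direction and the call of CNN1 therefore depended on the scaling.

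**Figure D2:**
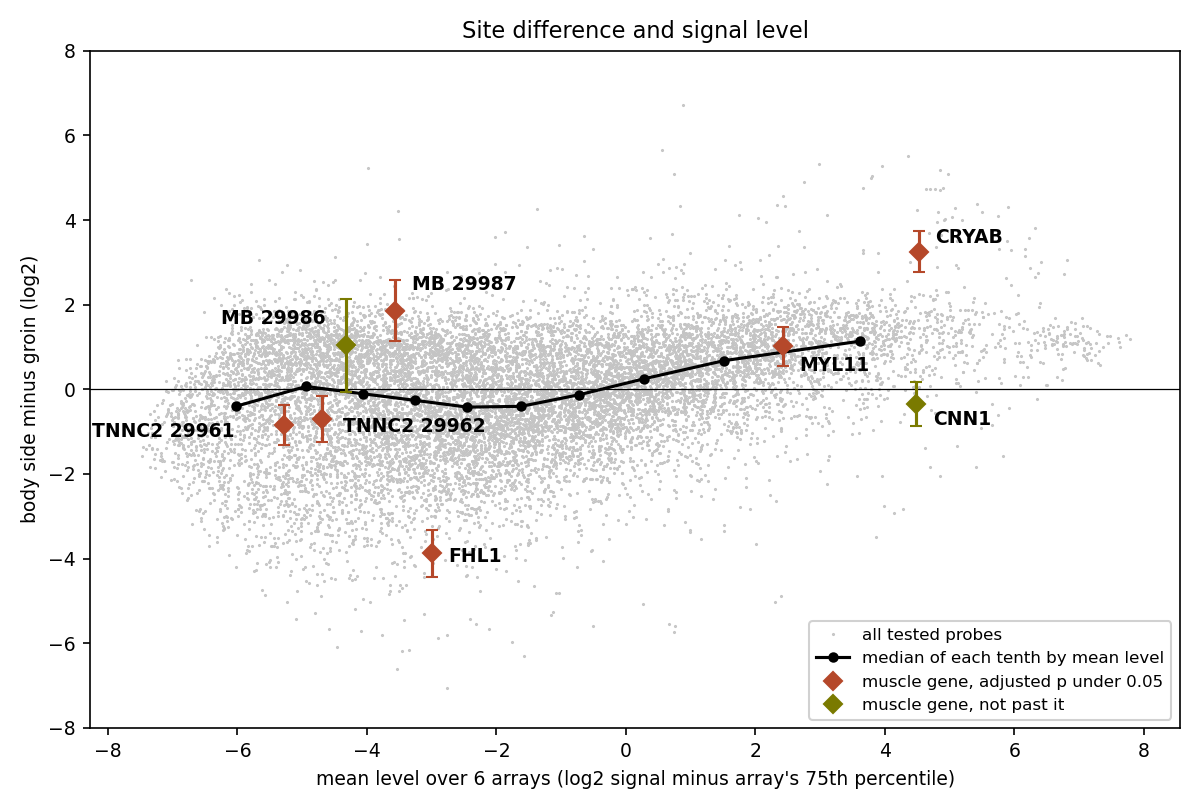
Site difference (vertical axis, body side minus groin, log2) against the mean level of the probe over 6 arrays (horizontal axis, log2 signal scaled to the array's 75th percentile) for all 13278 tested probes, with the median of each of 10 equal brightness groups as a line and the muscle gene probes as diamonds with 95% intervals. CRYAB lies above and CNN1 below the median of the brightest group (1.14), MYL11 lies near it, and FHL1 lies far below the median of its own group (-0.26).

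Of the 8 probes, 6 had arrays that did not overlap between sites, 3 with the body side above and 3 with it below; this held for 75.2% of the tested probes with values on all arrays. Taken by themselves, such probes reach p = 0.1 in the exact permutation test (two-sided), the smallest that 3 against 3 arrays allow. Among the genes of the fast fibre machinery, the MYL11 call depended on the scaling, and the TNNC2 calls rested on probes tested only because of the groin arrays. CRYAB and FHL1 also differed in opposite directions, and both kept their direction and call under the 20 alternatives.

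**Figure D3:**
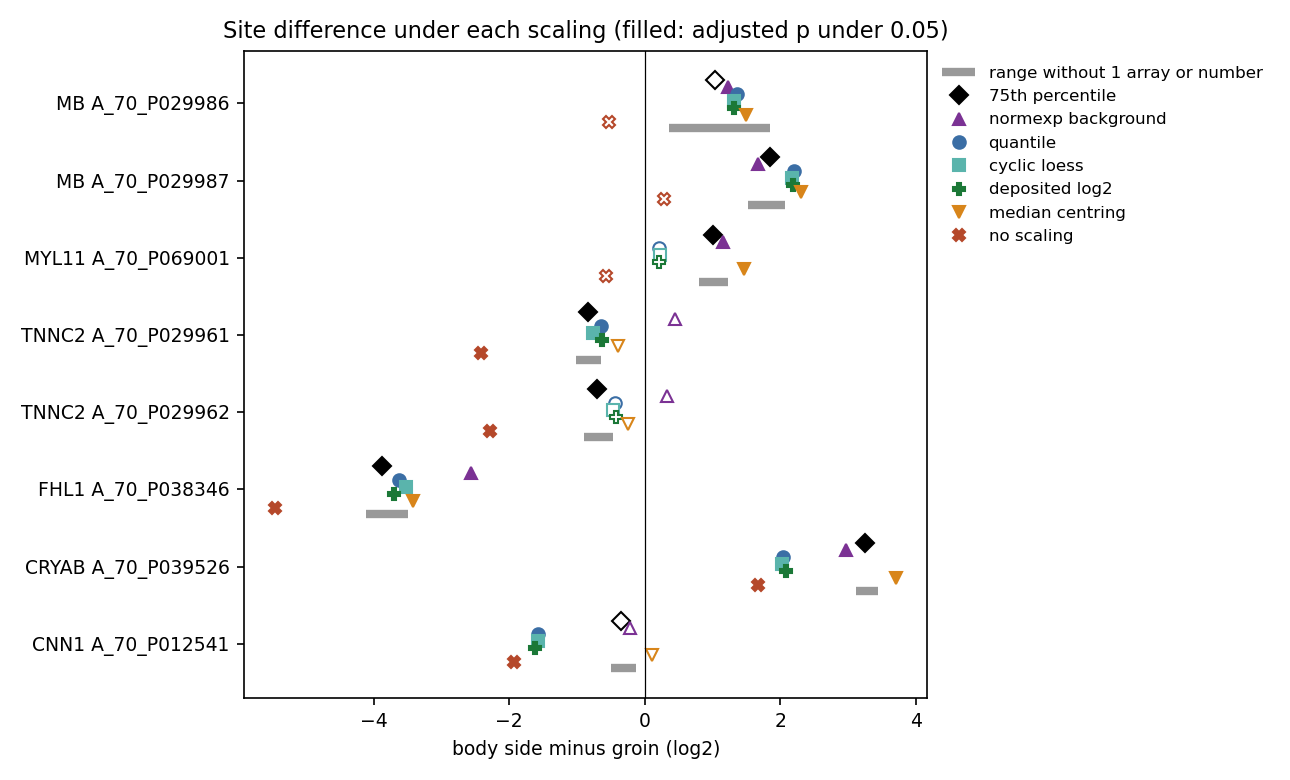
Site difference of each muscle gene probe (horizontal axis, body side minus groin, log2) with 75th percentile scaling and 6 other ways of correcting or scaling the signals; filled symbols have an adjusted p under 0.05, and grey bars span the values without 1 array or 1 replicate number. FHL1 stays below 0 and CRYAB above 0 with filled symbols throughout, MYL11 and CNN1 shift with quantile normalization, cyclic loess and the deposited values, and TNNC2 crosses 0 with normexp.

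The site difference of the ram was set beside those of the 2 ewes. With 1 ram, sex and animal cannot be told apart, so the values are a description. For 7 of the 8 probes the ram's difference and every difference between a ewe's body side and groin arrays had the same sign. FHL1 differed by -3.39 in the ram and by -4.63 to -3.61 over the ewes' arrays. CRYAB differed by 3.32 in the ram and by 2.92 to 3.53 over the ewes' arrays. The ram's value lay within the span of the ewes for CRYAB, CNN1 and the brighter MB probe, and just outside it for FHL1. It was also outside for MYL11 (1.43, against 0.57 to 1.04 over the ewes' arrays). So it was for TNNC2, at -1.18 against -0.85 to -0.50 for A_70_P029961 and -1.08 against -0.70 to -0.33 for A_70_P029962. The exception in sign was A_70_P029986 of MB, at -0.57 in the ram, whose body side spot was not well above background, and 1.29 to 2.41 over the ewes' arrays.

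Other genes of muscle on the array were few. Of 40 sarcomere genes in the list, 3 had tested probes: MYL11, TNNC2 and TPM1, a tropomyosin that lies along the actin filament of striated and smooth muscle. TPM1 was 2.29-fold lower on the body side (-1.19 ± 0.18 SE, log2, limma adjusted p = 6.04e-04) and was called lower under every scaling run, from -2.77 to -0.74. The smooth muscle list of 18 genes had only TPM1 and CNN1, of which 1 was called lower and 1 did not pass. No probe was matched to ACTA1, CKM, the myosin heavy chains, the other fast troponin subunits, ACTA2, TAGLN or MYH11, so the markers that define skeletal and smooth muscle cells were mostly not measured by name.

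The skeletal muscle marker list held 2 tested genes of 11, MYOG and MYOD1, which encode the myogenic transcription factors myogenin and MyoD. Both were higher on the body side with this scaling, MYOG by 1.27 ± 0.17 (SE, log2, limma adjusted p = 3.29e-04) and MYOD1 by 0.64 ± 0.18 (0.0110). Their spots were dim. Their summed signal was 0.0794 to 0.0925 times the 75th percentile on the body side arrays, against 0.0361 to 0.0445 times on the groin arrays, and MYOD1 was well above background on 2 body side arrays. Both markers had the same direction as MB and MYL11 with this scaling. They are not set against TNNC2, whose direction depended on the processing. The part of MYOG and MYOD1 in the muscle gene results was not tested. Among the myogenic and growth regulators, 4 of 5 tested genes were called higher and 0 lower, where 45.5% of 442 named genes were called higher and 25.6% lower. MSTN, which encodes the growth inhibitor myostatin, was higher by 0.73 ± 0.26 and IGF1, a growth factor of muscle and many other tissues, by 0.66 ± 0.20. All 4 were below 0 without scaling, where MYOD1 (-0.93), IGF1 (-0.92) and MSTN (-0.85) were called lower and MYOG (-0.30) did not pass.

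Those calls were not equally stable. The call on MSTN ended without any one array except body side replicate 2, with differences from 0.47 without body side replicate 1 to 0.74 without groin replicate 3. The call on MYOD1 ended without groin replicate 2 (0.57, adjusted p = 0.0510), without replicate 2 or 3 at both sites (0.58 and 0.71) and with a variance trend (0.64, adjusted p = 0.0563). That on IGF1 ended without body side replicate 3 (0.60), groin replicate 3 (0.61), or replicate 1 or 3 at both sites (0.55 and 0.56). MYOG kept its call in all leave-outs. IGF2, which did not pass on its brighter probe (-0.20 ± 0.18), was called lower on the other (-2.52 ± 0.21, limma adjusted p = 4.29e-05).

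The calcium list gave only the calpain system, proteases and their inhibitor that trim muscle and other cells. Of 4 tested genes, 2 were called higher, 1 lower and 1 did not pass. CAST, which encodes the inhibitor calpastatin, was 3.36-fold higher on the body side (1.75 ± 0.19 SE, log2, limma adjusted p = 1.28e-04), though 0.71 with quantile normalization and 0.18, not past the threshold, without scaling. CAPN1, a calpain, was 4.33-fold lower on its brightest probe (-2.12 ± 0.21), and another of its probes was lower at -1.97, but the remaining probe, A_70_P027806, was called higher at 1.11 ± 0.23 and was -0.47 without scaling. CAPN2 was higher by 0.64 ± 0.17 on its brighter probe, while its other probe did not pass (0.43, adjusted p = 0.0952). The brighter probe's call was one that ended with quantile normalization (0.01), cyclic loess and the deposited values and without replicate 1 or 3 at both sites (0.59 and 0.61); without scaling it was called lower (-0.94). CAPN3, the calpain of skeletal muscle, differed by 0.02 ± 0.16 and did not pass.

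Among the genes of oxygen and fuel, 2 of 4 were called higher, 1 lower and 1 did not pass. CPT1B, the muscle form of the enzyme that takes fatty acids into mitochondria, was higher by 0.85 ± 0.17 (SE, log2, limma adjusted p = 0.00235); without scaling it was called lower (-0.73), and the call ended without replicate 3 at both sites (0.72). Its other probe did not pass (0.27 ± 0.48) but did without body side replicate 1 (0.90, adjusted p = 0.00460), the same array that stood apart for the dimmer MB probe. PYGM, the glycogen phosphorylase of muscle, differed by 0.35 ± 0.16 and did not pass (adjusted p = 0.0750). LPL, which frees fatty acids from blood lipids, was called lower (-0.71 ± 0.18), but its spot was well above background on only 1 array of the body side. It was tested only because of the groin arrays, so its call is given as a description and the size is not exact. Its call ended with quantile normalization (-0.52), median centring (-0.25) and the deposited values (-0.51), and without replicate 3 at both sites (-0.53). With normexp LPL turned to 0.51, short of the threshold, and its other probe, otherwise at -0.97, was called higher at 0.61 (adjusted p = 0.0427). Of the other oxygen carriers, the globin HBB was higher by 1.70 ± 0.43, though 0.13 and not past the threshold without scaling (limma adjusted p = 0.806). CYGB, the cytoglobin of fibroblasts, differed by -0.12 ± 0.19 and did not pass. CA1, the red cell carbonic anhydrase, was in the same list but is not an oxygen carrier. It was called lower, but its spot was well above background on only 1 body side array. It was tested only because of the groin arrays, so no exact size is given. Beyond FHL1, no gene of the LIM-domain list had a named probe.

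**Figure D4:**
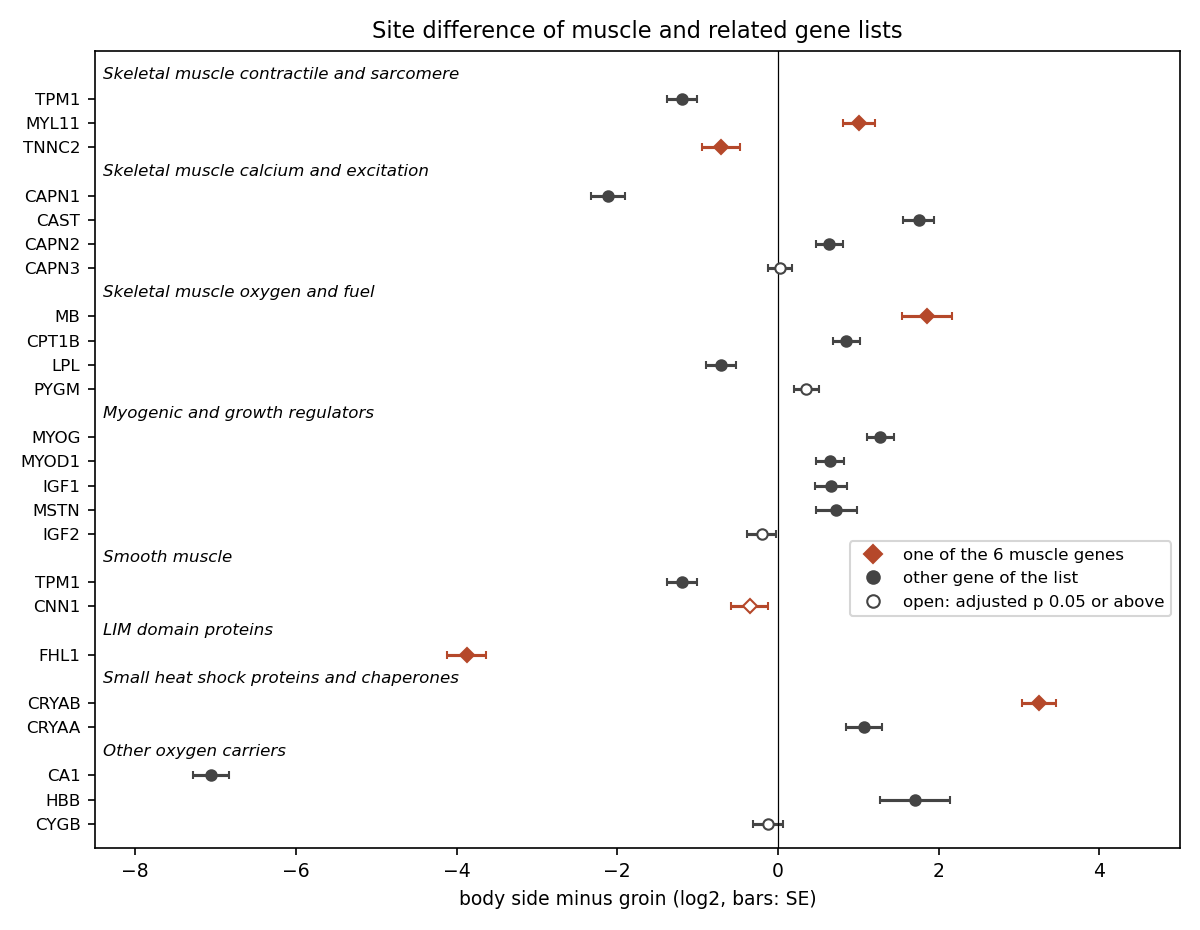
Site difference (horizontal axis, body side minus groin, log2, bars for SE) of every tested gene in the lists of muscle and related genes, by its brightest probe, with the 6 muscle genes as diamonds and open symbols for an adjusted p of 0.05 or above. The myogenic regulators lie mostly above 0, TPM1 and CNN1 below, and within the sarcomere list MYL11 lies above 0 and TPM1 and TNNC2 below.

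The endothelial markers with tested probes, 2 of 7 in the list, moved with TPM1. The smooth muscle marker list held 1 tested gene, CNN1, which did not pass with the main scaling. Both tested endothelial genes, SELE and SELP, were called lower on the body side, by 2.82-fold and 1.62-fold (limma adjusted p = 1.81e-04 and 0.00435). The call on the brighter SELP probe ended with normexp (-0.04), quantile normalization (-0.30), median centring (-0.24) and the deposited values (-0.31), and without replicate 3 at both sites (-0.71). Their summed signal was 0.145 to 0.168 times the 75th percentile on the body side arrays, against 0.312 to 0.371 times on the groin arrays. Of the 3 tested dermal fibroblast markers, MMP2 and BGN were called lower and DCN was called higher on its brighter probe (0.89). The brightest MMP2 probe was well above background on only 2 body side arrays. It was tested only because of the groin arrays, so its call is given as a description. DCN was not stable: its other probe did not pass (0.32, adjusted p = 0.145), and the brighter one was called lower without scaling (-0.68) and with cyclic loess (-0.81). The summed signal of the 3 was 116 to 203 on the body side arrays against 84.1 to 94.9 on the groin arrays, which is set almost wholly by DCN and does not show the direction of MMP2 and BGN. The part of vessels and of fibroblasts in the differences of TPM1, CNN1 and FHL1 was not tested.

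The named genes whose values over the 6 arrays were most like those of each muscle gene were found among 433 others by the root mean square difference of mean-centred log2 values, which is led by the size of the site difference. For CRYAB these were SFTPC (0.098), KRT27 (0.13) and K38 (0.21), of which KRT27 and K38 are keratins of the wool follicle. For FHL1 they were ACLY (0.26), MMP2 (0.36) and ITGB1 (0.43), all lower on the body side by more than 3 log2 units. The MMP2 probe was tested only because of the groin arrays. AQP5 (0.17), PAG9 (0.20) and DYNLT3 (0.28) lay nearest to the brighter MB probe. For MYL11 they were ACVR2A (0.12), PRD-SPRRII (0.12) and NPVF (0.14), and for the brighter TNNC2 probe HEXA (0.032), DTNBP1 (0.088) and EEF1D (0.14). MC5R (0.18), PTGDS (0.18) and ABCB1 (0.19) lay nearest to CNN1.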

How the data were processed

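Cy3-labelled cRNA from 6 skin samples was read on 1-colour Agilent sheep arrays, per the labels' protocols. The authors deposited processed signals, an intensity that Agilent Feature Extraction (10.5.1.1 in the submitters' processing notes) had background-corrected and detrended, per the file headers. The authors also deposited log2 values whose columns share a median of 8.31 and correlate at 0.999 with quantile-normalized log2 processed signals; their normalization is not given in the sources used here. The unit of the spot flags used, other than intensity and log2, is 0 or 1.

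Controls and outlier spots (6 to 51 per array) were dropped, and the 50 probes spotted 5 times were averaged. Log2 signals minus the 75th percentile of each array were tested for 13278 probes that stood well above background throughout either site, with 2 or more values at each. The site difference (body side minus groin) was fitted by lmFit and eBayes of limma 3.58.1 (R 4.3.3), with no replicate block. The fit was tested on simulated data. The 20 alternatives changed the background correction, the scaling, the filter on dim probes or the variance model, used the deposited log2 values, added sex or a block, or left out 1 array or 1 replicate number. Genes were named through RefSeq accessions in a table of the assembly ARS-UI_Ramb_v3.0 (734 probes matched, 14274 did not); the files name no build, so no coordinates are given. A listed gene is represented by its brightest tested probe. The files held no mean spot signal, so normexp (offset 50) used the median spot and local background intensity. The muscle genes, the lists and the tests were chosen with earlier results of these data known. All tested genes of a list are counted; up to 4 are named, by smallest adjusted p, and all where a list has 4 or fewer. IGF2, the one further gene of its list, was named after its values were seen. The arrays numbered 1 are the same ram by the labels, which do not tie the numbers of the ewes across sites; deviations from the site means correlated at 0.159 for number 1, 0.089 for number 2 and -0.088 for number 3, and a fit with the number as a block is an alternative. Replicates within a site are separate animals, and their number limits the precision.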

Additional observations from a re-analysis of the deposited data

Results flagged for a closer look

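The MB probe A_70_P029986 had a site difference of the opposite sign in the ram and in the ewes. In the ram the body side array lay below the groin array, with a log2 difference of -0.57, whereas both ewes' body side arrays lay above both ewes' groin arrays, by 1.29 to 2.41. The ram's difference minus that of the ewes was -2.42 ± 0.58 (SE, limma interaction term, adjusted p = 0.164). With 1 ram, sex and animal cannot be told apart, and the SE takes the ram to vary as the ewes do. With normexp background correction the ram's difference minus that of the ewes was -1.24. Whether it passed the threshold depended on the variance model. The ram's body side spot was not well above background, with a signal of 45.4 and an error of 24.4% by the scanner software. The other MB probe gave -0.09 ± 0.55 for the same comparison, with differences of 1.80 in the ram and 1.26 to 2.52 over the ewes' arrays.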

How the results depend on the processing

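Of 20 alternatives, chosen with earlier results known, FHL1 and CRYAB kept their call and direction in all, and the brighter MB probe in 19. Without scaling that probe was at 0.28, the dimmer one at -0.53, MYL11 at -0.56 and CNN1 at -1.93 (past the threshold). MYL11 was at 0.21 by quantile normalization, 0.22 by cyclic loess and 0.21 with the deposited values. CNN1 passed with those 3, at -1.57, -1.57 and -1.61, and was 0.10 by median centring. The dimmer MB probe passed with them (1.36, 1.32 and 1.32), with normexp (1.22) and with median centring (1.50). TNNC2 turned to 0.45 and 0.33 with normexp and was -0.39 and -0.25 by median centring; A_70_P029962 was -0.43, -0.46 and -0.42 with the other 3. The ram-minus-ewes difference turned for CRYAB with normexp (-0.25) and without scaling (-0.15), and for TNNC2 with normexp (0.40 and 0.091). For the dimmer MB probe that difference was -1.24 with normexp, against -2.42 in the main fit, and whether it passed depended on the variance model. Leaving out arrays gave 0.37 to 1.85 for the dimmer MB probe, 1.52 to 2.07 for the brighter, 0.80 to 1.23 for MYL11, -1.02 to -0.65 and -0.90 to -0.46 for TNNC2, and -0.50 to -0.13 for CNN1. The count of muscle probes called ran from 4 to 7. The filter on all 6 arrays left 5 of the 8 probes, without the dimmer MB probe and both TNNC2 probes. The median of all tested probes moved by 0.36 with normexp, 0.46 with median centring and -0.12 with cyclic loess, 0.15 without the filter on dim probes, 0.22 with the filter on all 6 arrays and -1.57 without scaling, and higher calls made up 53.0% of all calls, 68.6% with normexp, 68.5% with median centring, 61.8% with the filter on all 6 arrays and 1.98% without scaling. With the replicate number as a block, 6 of the muscle probes and 9211 of all tested probes were called; no call on a muscle probe changed. Scan and site cannot be told apart, and 3 animals limit the precision.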
